A study of Mus musculus with 41 samples.

Results

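Interferon response and class I presentation genes were followed across 14 groups of mouse thymic stroma. The members are those of a list of 40 genes that had a probe, and the list was chosen with earlier results of these data known. The rule itself used measured values only to pick the brightest probe of a gene. A probe was present for 35 of the 40, among 13283 genes with a probe in the series. Of these, 33 were measured in both cell fractions. Oas1a and Oas3 had a probe only in the epithelial fraction, where both were dim and were not tested. Ifih1, Ifit1, Xaf1, Ifi44 and Iigp1 were not analysed here. RNA was measured on 41 Illumina expression arrays from male C57Bl/6 mice. Thymic epithelial cells (TEC, sorted as CD45-EpCAM+) gave 24 arrays in 8 groups of 3, and the other stroma (nonTEC, CD45-EpCAM-) gave 17 arrays in 6 groups. The unoperated groups were young (5 to 6 weeks old) and middle-aged (9 to 12 months old). The operated groups, also 9 to 12 months old, were castrated or sham-castrated. They were sampled on day 4, 7 or 20 in TEC and on day 4 or 7 in nonTEC. Each group held 3 arrays except sham nonTEC on day 7, which held 2. Nothing in the labels ties an array to its own animal, and a p-value here therefore covers array-to-array spread, which may be technical.

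Interferons are secreted proteins that bind receptors on the same or neighbouring cells and activate JAK kinases and STAT factors. Type I interferon acts largely on interferon-stimulated response elements, through complexes that hold STAT2 and IRF9, and type II interferon (IFN-gamma) on gamma-activated sites. The induced genes include antiviral effectors, the immunity-related and guanylate-binding GTPases, and the machinery that cuts proteins and loads the peptides onto MHC class I. In the thymus, TEC display class I peptides to developing CD8 T cells, and interferon made in the thymus maintains a basal level of such genes in steady state.

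Values are the authors' normalized log2 intensities, a difference of 1 on this scale being a doubling. Differences are given ± SE from a linear model of the group means, with p-values adjusted over all genes tested in a comparison (adjusted p) and 0.05 as the threshold for a call. Where a gene had several probes, the brightest on average was used, and levels of different genes are not compared. Bulk arrays cannot tell fewer cells of a type from less RNA per cell.

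The fractions carried their defining markers on the mean of each list. The mean of 7 TEC markers lay at 11.39 to 12.28 on TEC arrays and at 6.01 to 8.56 on nonTEC arrays, and the mean of 6 fibroblast markers at 6.38 to 8.35 and 10.99 to 11.96. Single markers were less distinct. The TEC marker Ccl25 read 8.03 to 12.01 on nonTEC arrays, overlapping 9.67 to 12.58 on TEC arrays, and the TEC marker Psmb11 was dim in TEC (median 6.88). The fibroblast marker Dcn read 9.91 to 12.88 on TEC arrays and 13.91 to 14.58 on nonTEC arrays. Sham TEC array 3 of day 4 stood apart in its thymocyte markers, with a mean of 10.14. On a second set of arrays, single members were far below the rest. The Psmb8 probe read 6.68 on middle-aged TEC array 3, and 7.45 and 6.20 on castrated TEC arrays 2 and 3 of day 4, against 10.80 to 12.18 on the other TEC arrays. These 3 arrays were also the lowest for Psme2, at 7.35, 8.44 and 7.28. A second Psmb8 probe read 7.76, 8.36 and 7.86 on them. Middle-aged TEC array 2 was low for Oasl2 (6.97), Oasl1 (4.62) and Ifi47 (4.58), while another Oasl2 probe read 10.37 there. The 4 TEC arrays that stand apart are taken to be middle-aged array 3, castrated arrays 2 and 3 of day 4 and sham array 3 of day 4. Main counts that include any of them are also given without them, in the text or among the processing alternatives. Middle-aged TEC array 2 was kept in those fits, although its mean correlation with the arrays of its group was 0.852, against 0.844 for middle-aged array 3. Castrated array 1 of day 4, also kept, stood at 0.917, below castrated arrays 2 and 3 of day 4 at 0.953 and 0.947. The 4 were chosen after seeing the data, and leaving them out does not remove every outlying array.

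RefSeq promoters (GRCm38.p6, 250 bases before to 50 after the start) were matched by symbol for 29 of the 35 measured members. Dhx58, Mx2, Oas2, Parp14, Usp18 and Tap2 had no entry. The interferon-stimulated response element, searched on both strands as 2 copies of GAAA with any 2 bases between them, was present in 14 of the 29, against 3.99% of all genes with a promoter. The gamma-activated site, searched as TTC and GAA with any 3 bases between them, was present in 9 of the 29, against 9.55% of all genes. Matches may overlap each other, and both motifs were found in Bst2, Igtp, Ifitm3 and Oas1a. A match is a description of the sequence and not a shown binding site. The stretches below are printed because their genes recur in the comparisons that follow, or, for B2m and Isg15, because they are the reference members of the presentation and antiviral arms. They run 5′ to 3′ on the gene's strand, with capitals marking the response element in the first 6 and the gamma-activated site in Irf1. The gamma-activated site of Igtp lies 5′ of its response element and is left in lower case. Isg15 is taken from chr4:156200837-156200916 (minus strand), Ifit3 from chr19:34583353-34583432 (plus strand), Igtp from chr11:58199502-58199555 (plus strand) and Irgm1 from chr11:48871421-48871470 (minus strand). Gbp2 is taken from chr3:142620584-142620662 (plus strand), B2m from chr2:122147528-122147607 (plus strand) and Irf1 from chr11:53769904-53769983 (plus strand).
Isg15: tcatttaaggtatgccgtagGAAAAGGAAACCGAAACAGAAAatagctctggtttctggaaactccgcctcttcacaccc
Ifit3: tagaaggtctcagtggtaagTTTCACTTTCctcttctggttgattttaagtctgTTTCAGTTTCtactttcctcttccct
Igtp: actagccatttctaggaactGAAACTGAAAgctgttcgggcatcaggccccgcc
Irgm1: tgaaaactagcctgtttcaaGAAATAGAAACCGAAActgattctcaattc
Gbp2: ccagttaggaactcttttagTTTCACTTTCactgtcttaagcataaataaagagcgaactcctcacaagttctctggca
B2m: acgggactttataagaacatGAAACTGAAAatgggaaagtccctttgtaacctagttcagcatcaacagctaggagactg
Irf1: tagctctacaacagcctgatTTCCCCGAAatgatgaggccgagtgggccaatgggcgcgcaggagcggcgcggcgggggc
Isg15 carries 3 overlapping matches, Irgm1 carries 2 that overlap and Ifit3 carries 2 that are separate. Igtp, Gbp2 and B2m carry 1 each.

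**Figure D1:**
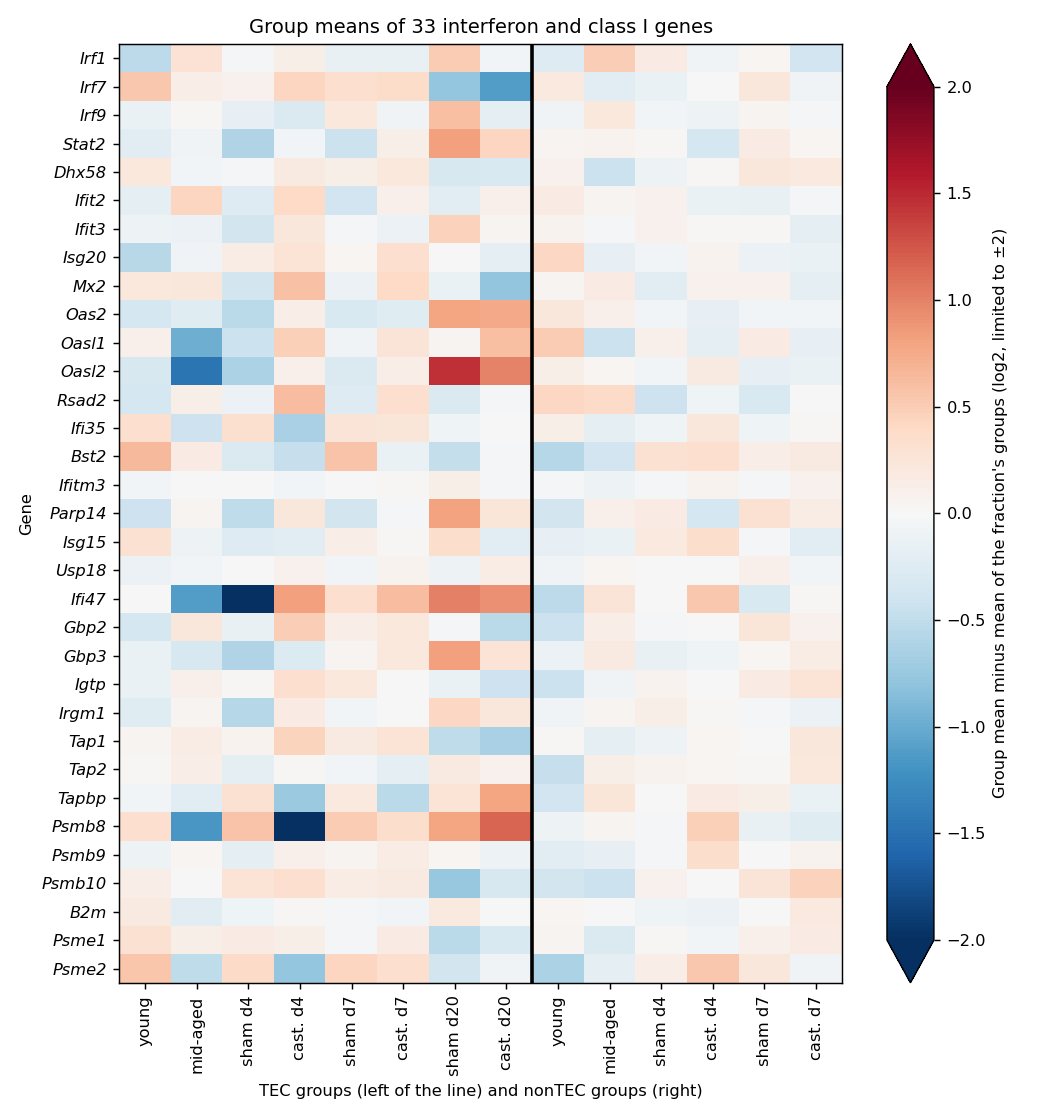
Group means of the 33 members measured in both fractions, each minus the mean of that fraction's groups (log2, colour limited to ±2), with TEC groups left of the line and nonTEC groups right. Ifi47 is lowest in sham TEC of day 4 and Psmb8 in castrated TEC of day 4, the sham TEC of day 20 stand high for Oasl2, Stat2, Parp14 and Gbp3.

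The unoperated arrays of both ages were used to compare TEC with nonTEC. Usp18, Dhx58, Irf7, Isg15, Tap1 and Psmb10 were higher in TEC, and Ifi47, Tapbp, Irf1 and Ifit2 were lower. In all, 14 members were higher and 11 lower in TEC of 33 tested, while 76.7% of all genes tested were called, 29.3% as higher and 47.4% as lower. The median member difference was -0.066, against -0.26 over all genes. Because the authors appear to have normalized each fraction separately, the median of all genes moved with the scaling, to 0.10 after centring each array on its median and to 0.12 after joint quantile normalization. Either scaling gave 17 higher and 4 lower members, and the members' median turned to 0.28 and 0.33. Without the 4 TEC arrays that stand apart 26 members were called, where 77.9% of all genes were, and the members' median was 0.12. Pan-leukocyte markers also differed between the fractions, 4 of 5 tested being higher in TEC, with means of 9.57 to 10.84 in TEC and 7.40 to 10.15 in nonTEC. All 4 thymocyte markers tested were lower in TEC, with means of 6.61 to 7.28 against 7.48 to 10.41, and the part of these cells was not tested.

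Usp18, the protease that removes ISG15 from proteins and restrains type I interferon signalling, had the largest difference among the members. Over the 6 unoperated TEC arrays it had a lowest, median and highest value of 12.44, 12.58 and 12.78, against 9.77, 9.96 and 10.36 over 6 nonTEC arrays. The difference was 2.62 ± 0.09 (adjusted p = 6.95e-22), a 6.14-fold ratio. Dhx58, encoding the RNA sensor LGP2, read 9.29, 9.75 and 9.92 in TEC and 6.95, 7.29 and 7.89 in nonTEC, higher by 2.35 ± 0.13 (adjusted p = 6.92e-17). Usp18 and Dhx58 were the only members whose TEC arrays, of all 8 groups, lay above every nonTEC array. The share of all genes that do so was not computed. Irf7, the factor that amplifies type I interferon transcription, read 9.07, 9.90 and 10.22 in TEC and 7.63, 8.15 and 8.53 in nonTEC. It was higher in TEC by 1.72 ± 0.15 (adjusted p = 6.22e-12).

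Isg15, the ubiquitin-like modifier, was higher in TEC by 1.20 ± 0.19 (adjusted p = 1.08e-06), with overlap through the low middle-aged TEC array 3 at 10.25. Of the class I genes, 4 of 9 were higher in TEC. These were Psmb10, an inducible proteasome subunit (1.30 ± 0.11), Tap1, a subunit of the peptide transporter (0.95 ± 0.12), Psmb9, a further inducible subunit (0.71 ± 0.10), and Psme1, of the proteasome activator PA28 (0.66 ± 0.10). Tapbp, which bridges class I to the transporter, was lower in TEC by 1.67 ± 0.30 on the log2 scale (adjusted p = 7.96e-06). B2m, the light chain of class I, was lower by 0.27 ± 0.11 (adjusted p = 0.027), a direction that flipped to 0.079 with median centring and to 0.098 with quantile normalization. Psmb8 differed by -1.19 ± 0.59 (adjusted p = 0.0655) through its main probe and by 0.011 through the other.

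The GTPases went both ways. Igtp, which carries both motifs, was higher in TEC by 0.65 ± 0.10 (adjusted p = 9.81e-07), without overlap. Ifi47, an immunity-related GTPase, read 4.58, 8.62 and 8.83 in TEC and 9.44, 9.96 and 10.48 in nonTEC, without overlap, and was lower by 2.04 ± 0.48 (adjusted p = 0.000339). Irf1, a transcription factor induced early by IFN-gamma, was lower in TEC by 0.79 ± 0.09 (adjusted p = 9.11e-10), with 5 of 5 probes on the same side. Irgm1, a GTPase that guards membranes, differed by -0.37 ± 0.11 and Gbp2, a guanylate-binding protein, by -0.41 ± 0.14, but quantile normalization turned them to 0.12 and 0.025. Among antiviral effectors 5 were higher and 4 lower in TEC. Ifit2, an RNA-binding effector, was lower by 0.67 ± 0.13 and Rsad2, encoding viperin, by 0.73 ± 0.19. Stat2 differed by -0.54 ± 0.17 (adjusted p = 0.00452), which was -0.20 after centring and no longer called. Ifit3 (0.95 ± 0.14) and Oasl2 (-0.81 ± 0.36) changed sign when all their probes were averaged, to -0.29 and 0.60. Oasl2 lost its call in 8 of 12 repeats that each left out 1 array, reading -0.16 without middle-aged TEC array 2. B2m lost it in 5 of 12, down to -0.15 without the same array, and Gbp2 was at -0.25 (adjusted p = 0.079) without middle-aged TEC array 3.

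**Figure D2:**
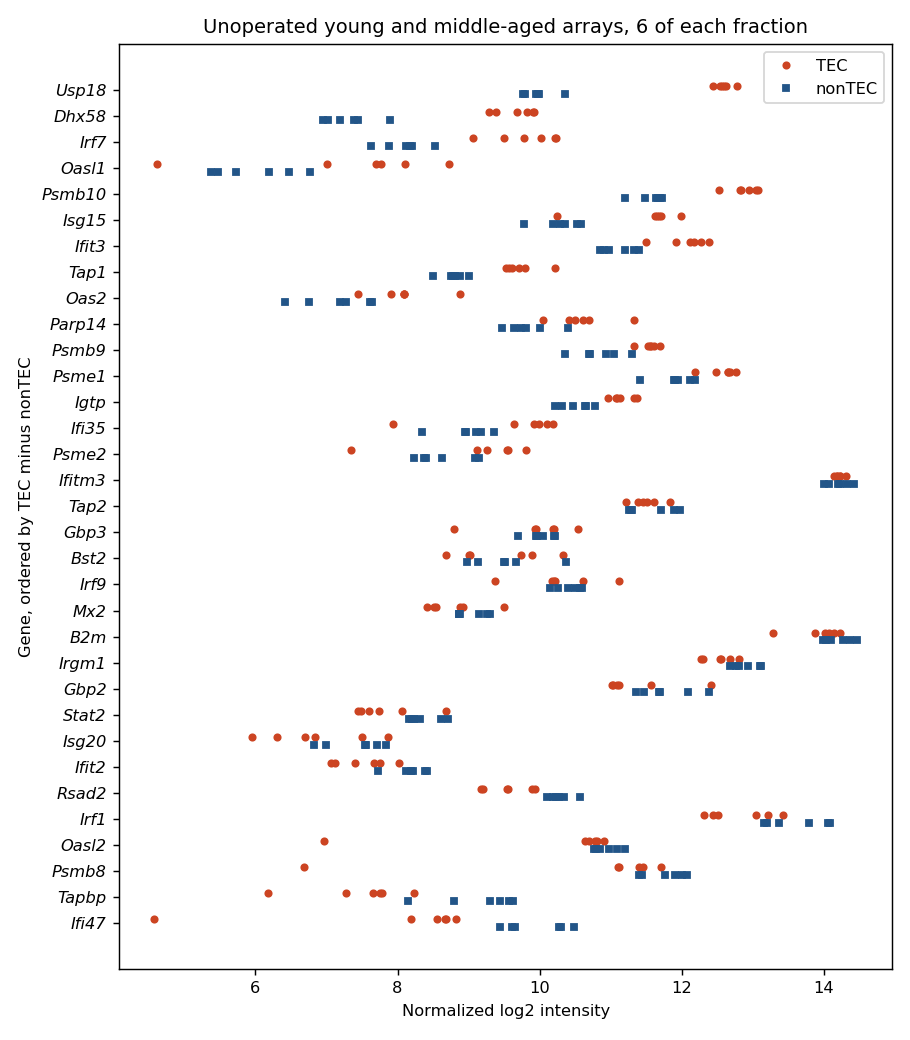
Normalized log2 intensity of each tested member on the 6 unoperated TEC arrays (circles) and the 6 unoperated nonTEC arrays (squares), ordered by the TEC minus nonTEC difference. Of the members higher in TEC without overlap, Usp18 and Dhx58 lie the furthest from nonTEC, and Ifi47 and Rsad2 are lower in TEC without overlap on the deposited scale. For Rsad2 the gap is narrow, from a highest TEC value of 9.94 to a lowest nonTEC value of 10.10. Whether that gap remains after rescaling the fractions was not tested. The share of all genes without overlap was not computed.

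In TEC, Irf1 and Ifit2 rose with age, and no member fell past the threshold. The 2 called members of 33 compare with 18.6% of all genes tested, 11.9% called as higher and 6.75% as lower. The median member difference, middle-aged minus young, was 0.025, against 0.0083 over all genes, and turned to -0.12 with a gene's probes averaged. Irf1 read 12.44, 12.50 and 12.31 on the young arrays and 13.42, 13.21 and 13.05 on the middle-aged arrays. The age groups did not overlap, and the rise was 0.81 ± 0.13 (adjusted p = 0.000489), or 1.75-fold. The other 4 Irf1 probes differed by 0.29 to 1.20 in the same direction. Ifit2 read 7.40, 7.07 and 7.12 in young and 7.67, 8.02 and 7.76 in middle-aged TEC, higher by 0.62 ± 0.18 (adjusted p = 0.0209). It was dim, at 6.85 to 8.04 over the 24 TEC arrays, where a group mean above 6.73 was needed for a test. Without young array 2 or 3 or middle-aged array 2, the adjusted p of Ifit2 was 0.067 to 0.089. A fit of the 6 arrays compared alone called neither gene (adjusted p = 0.075 for Irf1 and 0.22 for Ifit2), with 3 members at an unadjusted p under 0.05 and 0.106% of all genes called.

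The members that did not pass included most of the presentation genes. B2m differed by -0.38 ± 0.15 (adjusted p = 0.0753), Psme2 of the PA28 activator by -1.06 ± 0.40 (0.0669) and Psmb8 by -1.49 ± 1.05 (0.327), the last spread over 11.10, 11.71 and 6.68 in middle-aged TEC. Tap1 differed by 0.09 ± 0.18, Irf7 by -0.41 ± 0.23, Isg15 by -0.40 ± 0.29, Stat2 by 0.15 ± 0.27 and Ifi47 by -1.12 ± 0.86. The 4 TEC arrays that stand apart are middle-aged array 3, castrated arrays 2 and 3 of day 4 and sham array 3 of day 4. Leaving them out gave 10 calls, 6 higher and 4 lower. In that fit 36.4% of all genes were called, 17.9% as higher and 18.5% as lower. There Irf9, partner of STAT2, differed by 0.67, Gbp2 by 0.91 and Irgm1 by 0.37, while Oasl1 differed by -2.05, Oasl2 by -1.82, B2m by -0.54 and Psme2 by -0.45. Middle-aged TEC arrays 1 and 2 remain in that comparison. Array 2 is the one low for Oasl1 (4.62) and Oasl2 (6.97), so the falls of these genes include that low array. Leaving out middle-aged array 3 alone gave 8 calls, 5 higher and 3 lower, where 29.2% of all genes were called. Of 5 pan-leukocyte markers tested 3 were lower in middle-aged TEC, with means of 10.55 to 10.84 in young and 9.57 to 9.80 in middle-aged arrays, and their part in these results was not tested.

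Of 94 further genes of the pathway, 60 were tested in TEC, and 10 were higher and 4 lower with age. Socs3, the feedback inhibitor of cytokine signalling, rose by 1.40 ± 0.20 (adjusted p = 0.000226), Ifi27 by 0.62 ± 0.10, the GTPase Irgm2 by 0.90 ± 0.19 and the interferon-lambda receptor chain Ifnlr1 by 1.07 ± 0.25. Of 6 constitutive proteasome genes tested, the counterparts of the inducible subunits, 3 fell, where 6.75% of all genes did, among them Psmb6 by 0.42 ± 0.10 and Psmb7 by 0.57 ± 0.16. None of the interferon genes themselves was bright enough to be tested.

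In nonTEC, Irf1, Tap2, Ifi47 and Gbp2 rose with age, and Dhx58 and Psme1 fell. That is 6 of 32 members tested, where 32.4% of all genes were called, 16.9% as higher and 15.6% as lower. The median member difference was 0.038, against 0.013 over all genes. Irf1 read 13.20, 13.37 and 13.16 in young and 14.06, 14.09 and 13.79 in middle-aged arrays, without overlap. It rose by 0.74 ± 0.11 (adjusted p = 0.00014), and its other 4 probes rose by 0.71 to 0.93. Tap2, the second subunit of the peptide transporter, read 11.29, 11.28 and 11.25 in young and 11.97, 11.70 and 11.88 in middle-aged nonTEC, a rise of 0.58 ± 0.12 (adjusted p = 0.00186). Tap1 differed by -0.23 ± 0.16 (adjusted p = 0.294).

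The 5 interferon-inducible GTPases measured all had a positive difference in nonTEC, as did 51.1% of all genes, and 2 of them passed. Ifi47 read 9.65, 9.61 and 9.44 in young and 10.30, 10.27 and 10.48 in middle-aged arrays, higher by 0.78 ± 0.18 (adjusted p = 0.00385). Gbp2 read 11.68, 11.47 and 11.36 and then 12.39, 12.09 and 11.70, higher by 0.56 ± 0.16 (adjusted p = 0.0136), a call lost without middle-aged array 1 or young array 3 (adjusted p of 0.074 and 0.062). Igtp, the GTPase whose promoter carries both motifs, missed the threshold at 0.36 ± 0.14 (adjusted p = 0.0617).

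Dhx58 read 7.89, 7.39 and 7.44 in young and 7.19, 7.02 and 6.95 in middle-aged nonTEC, lower by 0.52 ± 0.19 (adjusted p = 0.0418). Psme1 read 12.18, 11.94 and 12.12 and then 11.41, 11.90 and 11.91, lower by 0.34 ± 0.13 (adjusted p = 0.047). Either call was lost without any of several single arrays, with an adjusted p of up to 0.19 for Dhx58 and 0.22 for Psme1. Irf7 (-0.43 ± 0.18), B2m (-0.04 ± 0.15), Stat2 (0.03 ± 0.18), Isg15 (0.02 ± 0.20) and Psmb8 (0.16 ± 0.16) did not pass. Every one of 5 pan-leukocyte markers tested was lower with age in nonTEC, with means of 9.91 to 10.15 in young and 7.40 to 8.38 in middle-aged arrays. All 3 B lineage and all 4 macrophage and granulocyte markers tested were lower too, and their part in these results was not tested.

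Among the 60 further pathway genes tested in nonTEC, 8 were higher and 10 lower with age. Gbp5, another guanylate-binding protein, rose by 1.38 ± 0.19 (adjusted p = 7.31e-05). Of the constitutive proteasome genes, 3 of 5 tested were lower, where 15.6% of all genes were. Ptpn6, a phosphatase of blood cells, fell by 2.26 ± 0.32 and Ccl5, a chemokine of T cells, by 1.96 ± 0.30.

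The ageing difference itself differed between the fractions for 1 of 33 members, where 11.2% of all genes were called, 7.78% as higher and 3.45% as lower. Psme2 differed with age by -1.06 in TEC and by 0.44 in nonTEC, neither past the threshold, and the difference between the fractions was -1.50 ± 0.49 (adjusted p = 0.0411). Its TEC values were 9.55, 9.80 and 9.54 in young and 9.11, 9.26 and 7.35 in middle-aged arrays, and without the last the difference was -0.89 (adjusted p = 0.12). For Irf1 the difference between fractions was 0.07. Ifi47 had opposite signs in the fractions, but their difference of -1.90 ± 0.97 did not pass (adjusted p = 0.207).

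**Figure D3:**
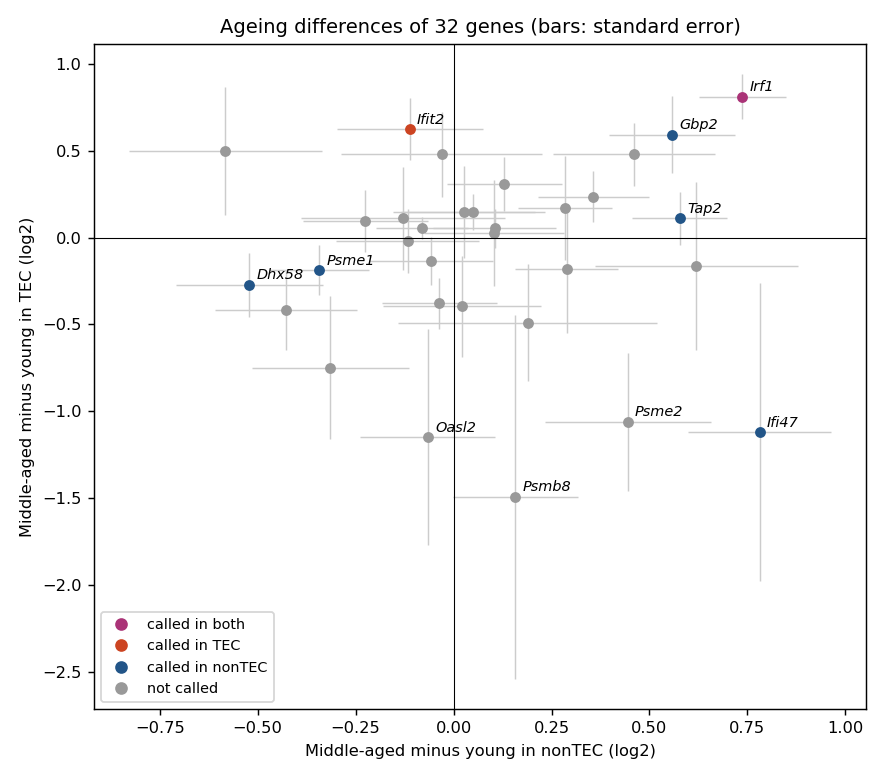
Middle-aged minus young difference (log2) in nonTEC on the horizontal axis and in TEC on the vertical axis for the 32 members tested in both, with bars of 1 standard error. Irf1 is the member called in both fractions, Ifit2 is called in TEC, and Tap2, Ifi47, Gbp2, Dhx58 and Psme1 in nonTEC, while Psmb8, Ifi47 and Oasl2 have the widest TEC bars and each had 1 middle-aged array far below the others.

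On day 4 after castration, TEC carried more Irgm1, Parp14, Ifi47 and Ifit2 than sham TEC. The 4 members of 33 make 12.1% of those tested, and 3.82% of all genes were called, 2.45% as higher and 1.37% as lower. The median difference, castrated minus sham, was 0.29 over the members and 0.038 over all genes (0.13 and 0.015 with a gene's probes averaged), and 25 of 33 members had a positive difference, against 53.8% of all genes. The antiviral effectors had a median of 0.67 and the GTPases of 0.64, while the 9 class I genes had one of 0.065.

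Irgm1 read 12.33, 12.24 and 11.56 in sham and 12.49, 12.88 and 12.98 in castrated TEC, higher by 0.74 ± 0.15 (adjusted p = 0.023), or 1.67-fold. Parp14, an ADP-ribosyltransferase induced by interferon, read 10.43, 10.28 and 10.09 in sham and 11.03, 11.05 and 10.95 in castrated TEC. It was higher by 0.74 ± 0.18 (adjusted p = 0.0334), and its second probe by 0.65. Ifit2 read 7.17, 6.95 and 7.29 in sham and 7.44, 7.87 and 8.04 in castrated arrays, higher by 0.65 ± 0.18 (adjusted p = 0.0476), with 0.64 at its second probe.

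Ifi47 had the largest difference of the 4, and the widest spread among sham arrays. The sham values were 8.23, 5.18 and 4.36, and the castrated values 8.76, 9.49 and 9.67, so the groups did not overlap. The difference was 3.38 ± 0.86 (adjusted p = 0.0372). On days 7 and 20 the sham TEC arrays read 8.35 to 9.71, so the low group was the sham TEC of day 4. The next members by p were Mx2, a dynamin-like antiviral GTPase, at 0.96 ± 0.30 (adjusted p = 0.0734) and Ifit3, a partner of other IFIT proteins, at 0.58 ± 0.18 (0.0739), although a second Ifit3 probe differed by -0.87.

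The presentation genes did not pass on day 4. Tap1 differed by 0.37 ± 0.18 (adjusted p = 0.193), B2m by 0.12 ± 0.15 (0.648) and Psmb8 by -3.14 ± 1.05 (0.0824), with 11.60, 11.23 and 11.86 in sham and 11.62, 7.45 and 6.20 in castrated arrays. At its second probe Psmb8 differed by -0.48. Irf7 (0.34 ± 0.23), Stat2 (0.54 ± 0.27) and Isg15 (0.04 ± 0.29) did not pass either.

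These day 4 calls rest on few arrays. A fit of the 6 day 4 arrays alone called 0 members and 0 of all genes tested, with 13 members at an unadjusted p under 0.05 and adjusted p of 0.23 to 0.25 for the 4. No member was called without sham array 3, castrated array 2 or castrated array 3, where 0.416%, 0% and 0.0489% of all genes were. Without sham array 2, 1 member was called, and 0.925% of all genes. Without castrated array 1 the count was 11, 7 higher and 4 lower, where 1405 of all 8285 genes tested were called. Without the 4 TEC arrays that stand apart, sham array 3 among them, castrated array 1 and sham arrays 1 and 2 of day 4 are left. Irgm1 then differed by 0.20 and Parp14 by 0.67. Sham array 3, with the high thymocyte markers, was the lowest of its group for 20 of 33 members, among them Irgm1, Parp14, Ifi47, Stat2, Mx2 and Ifit3, and the part of those cells was not tested. Without it, Irgm1 differed by 0.50 (adjusted p = 0.070), Parp14 by 0.65 (0.11), Ifi47 by 2.60 (0.15) and Ifit2 by 0.73 (0.083).

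Of the 60 further pathway genes tested in TEC, 5 were higher and none lower on day 4. They were the GTPase Tgtp1 (1.72 ± 0.32, adjusted p = 0.0133), Parp12 (1.33 ± 0.27), the receptor chain Il10rb (1.50 ± 0.39), Gbp7 (0.73 ± 0.19) and Cmpk2 (0.93 ± 0.25), which lies beside Rsad2 and is induced with it.

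**Figure D4:**
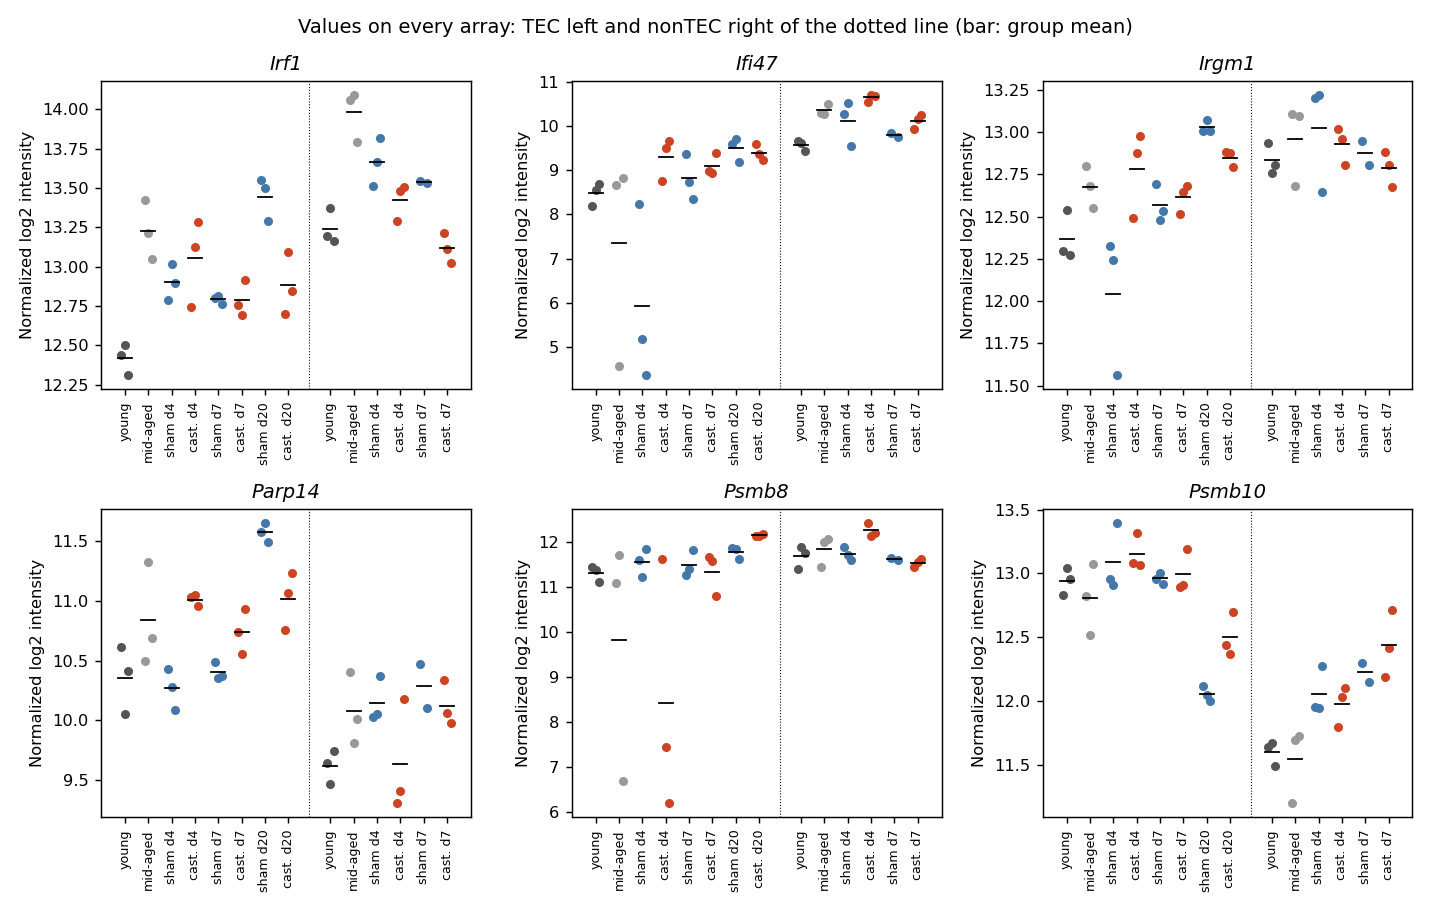
Normalized log2 intensity of 6 members on every array, TEC groups left and nonTEC groups right of the dotted line, with a bar at each group mean. Irf1 rises with age in both fractions, 2 of the 3 sham TEC arrays of day 4 are low for Ifi47, 3 TEC arrays are low for Psmb8, and Psmb10 is lower in both TEC groups of day 20 than in the other TEC groups.

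On day 7 no member passed in TEC, with 3 at an unadjusted p under 0.05, and 0.171% of all genes were called. The smallest p belonged to Ifit2 at 0.49 ± 0.18 (adjusted p = 0.26), whose sham values of 6.91, 6.85 and 7.26 lay below the castrated 7.63, 7.34 and 7.51. Rsad2 followed at 0.60 ± 0.24 (0.307) and Bst2, which encodes tetherin, at -0.70 ± 0.34 (0.38). The median was 0.048, against 0.0068 over all genes. Parp14 differed by 0.34 ± 0.18, Stat2 by 0.55 ± 0.27, Irf7 by 0.04 ± 0.23, Isg15 by -0.11 ± 0.29, Ifi47 by 0.29 ± 0.86, Tap1 by 0.09 ± 0.18, Psmb8 by -0.15 ± 1.05 and B2m by -0.02 ± 0.15. None of the 60 further pathway genes was called.

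On day 20 castrated TEC had less Irf1 and Parp14 and more Psmb10 than sham TEC. These 3 of 33 members compare with 22.2% of all genes, 12.9% called as higher and 9.29% as lower. The median difference was -0.14, against -0.042 over all genes. Irf1 read 13.55, 13.50 and 13.29 in sham and 12.70, 13.09 and 12.85 in castrated TEC, lower by 0.56 ± 0.13 (adjusted p = 0.00378), and its other 4 probes differed by -0.92 to -1.16. Parp14 read 11.58, 11.65 and 11.50 in sham and 10.75, 11.07 and 11.24 in castrated TEC, lower by 0.56 ± 0.18 (adjusted p = 0.030). Psmb10 read 12.12, 12.05 and 12.00 in sham and 12.43, 12.37 and 12.70 in castrated TEC, higher by 0.44 ± 0.14 (adjusted p = 0.0263), with 0.50 at its second probe. The Irf1 call held without any single array of these groups (adjusted p at most 0.029). Psmb10 lost its call without 4 of the 6 arrays and Parp14 without 5, with adjusted p up to 0.13 and 0.16.

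The arrays of day 20 were tight, and on 18 members the castrated and sham arrays did not overlap, 6 higher and 12 lower. Across all genes 27.6% did not overlap as higher and 30.9% as lower. A fit of the 6 day 20 arrays alone called 18 members, 6 higher and 12 lower, where 51.7% of all genes were called, 24.3% as higher and 27.4% as lower. The 12 lower members there included 4 of 4 transcription factors, Irf9 (-0.80), Irf1 (-0.56), Stat2 (-0.39) and Irf7 (-0.34), with Isg15 (-0.56) and the antiviral effectors Mx2 (-0.65), Oasl2 (-0.47) and Ifit3 (-0.40). The 6 higher were the class I genes Psmb10, Tapbp (0.52) and Psmb8 (0.37), the antiviral effectors Oasl1 (0.54) and Bst2 (0.45), and Usp18 (0.25). In the fit of all TEC arrays, Irf9 missed the threshold at -0.80 ± 0.30 (adjusted p = 0.0611), with 10.98, 11.02 and 10.83 in sham and 10.13, 10.13 and 10.17 in castrated TEC. B2m differed by -0.20 ± 0.15, Tap1 by -0.15 ± 0.18 and Ifi47 by -0.09 ± 0.86.

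Further pathway genes moved in both directions on day 20, with 3 higher and 7 lower of 60. Socs3 fell by 1.59 ± 0.20 (adjusted p = 3.29e-05), Ifi27 by 0.65 ± 0.10 and Gbp7 by 0.94 ± 0.19, and Cxcl9, an IFN-gamma-induced chemokine, rose by 0.87 ± 0.18. Pan-leukocyte markers moved with this comparison. Of 5 tested, 4 were higher in castrated TEC, with means of 9.32 to 9.63 in sham and 10.50 to 10.73 in castrated arrays, and their part in the member results was not tested.

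The castration difference in TEC changed between days for 6 of 33 members, against 16.9% of all genes. Parp14 led (F = 13.8, adjusted p = 0.0041), with 0.74 on day 4, 0.34 on day 7 and -0.56 on day 20. Irgm1 (F = 9.69, adjusted p = 0.0139) had 0.74, 0.05 and -0.18. Irf1 (F = 8.44, 0.0206) had 0.15, -0.01 and -0.56, although 3 of its other probes had negative differences on day 4, down to -1.09. Mx2 (F = 7.41, 0.0307) had 0.96, 0.52 and -0.65, Ifit3 (F = 7.36, 0.0313) had 0.58, -0.09 and -0.40, and Gbp2 (F = 6.67, 0.040) had 0.64, 0.08 and -0.50. Each of the 6 had its most positive difference on day 4 and its most negative on day 20.  Parp14 and Irgm1 passed without each of the 18 arrays, and the other 4 lost their call without at least 4 single arrays each. Without the 4 TEC arrays that stand apart 8 members passed, 5 of the 6 among them, where 19.6% of all genes did. Irgm1 no longer passed (F = 3.45, adjusted p = 0.17).

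**Figure D5:**
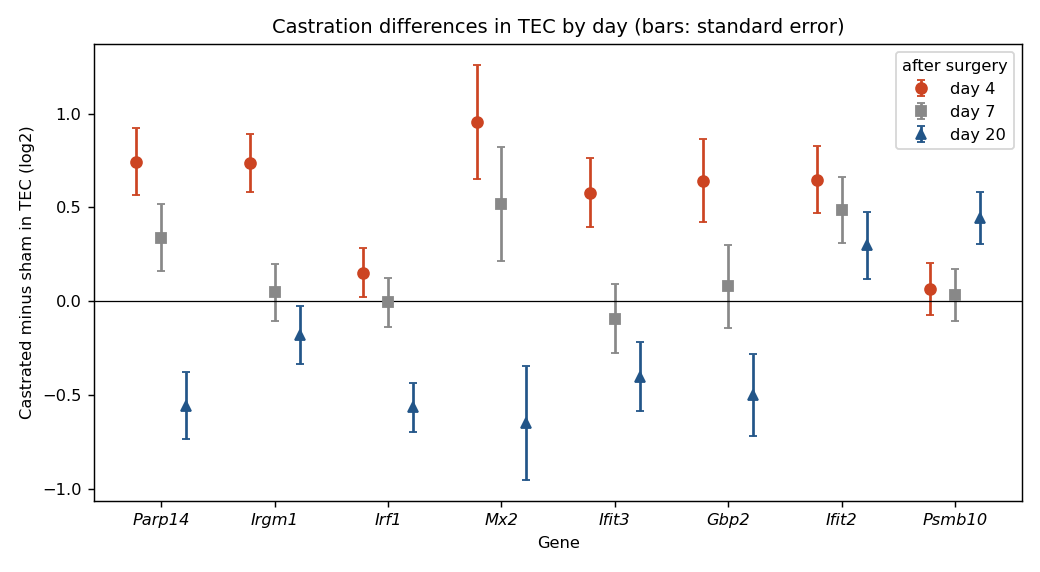
Castrated minus sham difference in TEC (log2) on day 4 (circles), day 7 (squares) and day 20 (triangles) for 8 members, with bars of 1 standard error. Parp14, Irgm1, Irf1, Mx2, Ifit3 and Gbp2, whose difference changed between days, lie above 0 on day 4 and below 0 on day 20, Ifit2 stays above 0 and Psmb10 is highest on day 20.

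In nonTEC no member passed after castration on day 4 or day 7. On day 4 the members had 5 unadjusted p-values under 0.05 of 32, and 6.12% of all genes were called. Psmb8 had the smallest p, with 11.90, 11.72 and 11.61 in sham and 12.44, 12.15 and 12.22 in castrated nonTEC, a difference of 0.52 ± 0.16 (adjusted p = 0.0602) without overlap. Ifi47 differed by 0.54 ± 0.18 (0.0886) and Parp14 by -0.52 ± 0.21 (0.142). The remaining described members were within 0.38 of 0 and did not pass, namely Irf7 (0.13), Stat2 (-0.38), Isg15 (0.15), Tap1 (0.13) and B2m (-0.03). Thymocyte markers were higher in castrated nonTEC for 4 of 4 tested, with means of 7.44 to 7.95 in sham and 8.75 to 10.69 in castrated arrays, as were 4 of 5 pan-leukocyte markers, and their part was not tested. Of 60 further pathway genes 1 was higher, the blood-cell phosphatase Ptpn6 (1.45 ± 0.32, adjusted p = 0.0153).

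On day 7 in nonTEC 1 member had an unadjusted p under 0.05, and 0.438% of all genes were called. This was Irf1, at 13.54 and 13.53 in the 2 sham arrays and 13.22, 13.11 and 13.02 in castrated nonTEC, a difference of -0.42 ± 0.12 (adjusted p = 0.149). All 5 Irf1 probes were on the same side, from -0.42 to -1.65. Ifi47 (0.32 ± 0.20, 0.656) and Irf7 (-0.30 ± 0.20, 0.688) came next. Stat2, Isg15, Tap1, Psmb8 and B2m differed by -0.12, -0.20, 0.22, -0.08 and 0.21.

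Averaged over days 4 and 7, the castration difference was higher in TEC than in nonTEC for 3 of 33 members, against 6.04% of all genes, 3.68% called as higher and 2.37% as lower. Parp14 differed between the fractions by 0.88 ± 0.21 (adjusted p = 0.0122), being positive in TEC and negative in nonTEC on both days. It passed in every repeat without a single array. Ifit2 differed by 0.63 ± 0.19 (0.0425) and Stat2, the signal transducer of type I interferon, by 0.79 ± 0.25 (0.0482). Stat2 read 7.65, 7.58 and 6.91 in sham and 8.06, 7.84 and 7.85 in castrated TEC on day 4, without overlap. In nonTEC the order was the other way, with 8.48, 8.35 and 8.20 in sham and 7.73, 7.96 and 8.20 in castrated arrays. Ifit2 and Stat2 lost their calls in many repeats without a single array, with adjusted p up to 0.10 and 0.11. These values rest on the same day 4 arrays as the TEC comparison.

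The sham groups were also set against unoperated middle-aged mice, which carry neither the surgery nor the time since it. In TEC 1 of 33 members passed, and 5.63% of all genes were called, 1.9% as higher and 3.72% as lower. Ifit2 was lower in sham TEC by 0.71 ± 0.15 (adjusted p = 0.0149), but its second probe differed by 0.14, and without middle-aged array 2 the adjusted p was 0.061. In nonTEC no member passed, with 6 at an unadjusted p under 0.05, and 0.296% of all genes were called. Psmb10 (0.60 ± 0.14, adjusted p = 0.0611) and Irf1 (-0.38 ± 0.10, 0.0762) had the smallest p there.

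Sham TEC of day 20 stood apart from sham TEC of days 4 and 7, with 9 members higher and 4 lower of 33. Over all genes 57.8% were called, 23.9% as higher and 33.9% as lower. These sham arrays are also the controls of the castrated groups. Castrated TEC of day 20 was set off as well. On the main axis of variation between TEC arrays (37.8% of the variance), the day 20 arrays lay at 0.28 to 0.33 when castrated and 0.35 to 0.38 when sham. Every other TEC array lay at 0.011 or below. Time since sham surgery therefore cannot be told apart from anything else that the day 20 arrays share. Without the 4 TEC arrays that stand apart, 12 members were higher and 7 lower, where 5187 of all 8161 genes tested were called. Psmb10, at 12.12, 12.05 and 12.00 on day 20, had a lowest, median and highest value of 12.91, 12.96 and 13.40 over the 6 earlier sham arrays, lower by 0.97 ± 0.12 (adjusted p = 2.4e-06). Irf7, at 8.71, 8.54 and 8.81, was below the earlier range of 9.15 to 9.91, by 0.99 ± 0.20. Tap1 was lower by 0.63 ± 0.15 and Psme1 by 0.62 ± 0.13.

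The 9 higher members on day 20 were 4 antiviral effectors, 3 GTPases and the factors Stat2 and Irf1. Parp14 was higher by 1.24 ± 0.16 (adjusted p = 2.49e-06), Stat2 by 1.33 ± 0.23, the oligoadenylate synthetase Oas2 by 1.21 ± 0.26, the related Oasl2 by 1.92 ± 0.54 and Gbp3 by 1.09 ± 0.32. Irgm1 (0.72 ± 0.13), Ifit3 (0.65 ± 0.16), Irf1 (0.60 ± 0.11) and Ifi47 (2.12 ± 0.74) were higher too, of which Ifi47 includes the low sham arrays of day 4. A bright second Irf1 probe differed by -0.09.

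Across all TEC groups the members differed widely in how much they varied. Ifitm3, which blocks viral entry, ranged over 0.26 on the 24 TEC arrays, but it read 14.11 to 14.37, near the top of the scale, where a saturated probe and a steady level cannot be told apart. Psmb9 ranged over 0.49 and Usp18 over 0.51. Psmb8, Oasl2, Ifi47 and Oasl1 ranged over 5.98, 5.57, 5.34 and 4.10, through the few low arrays named above. In nonTEC the widest range was that of Bst2, at 1.96, and the narrowest that of Irf9, at 0.45. B2m lay between 13.28 and 14.35 in TEC and between 13.76 and 14.50 in nonTEC, and passed in no comparison of age or castration fitted on all arrays.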

How the data were processed

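The deposited values are normalized log2 intensities per probe for each array. The base of the logarithm was taken as 2. The submitters' processing notes name limma, with no role or version. Quantiles are nearly the same within a fraction and differ between fractions, from which it was read that each fraction was normalized separately. For background correction and detection filter: not given in the sources used here. Of 24671 probes, the 20825 with 1 listed gene were used. Genes were tested where at least 1 group mean lay above 6.73, the median of the table. Group means were fitted with limma 3.58.1 (R 4.3.3) and trended empirical Bayes, within each fraction (residual degrees of freedom: TEC 16, nonTEC 11) and, between fractions, on the 41 arrays together (27), with Benjamini-Hochberg adjustment over all genes tested. The scripts were tested on simulated data. The members and lists were chosen with earlier results of these data known. Members past the threshold were named, smallest p first, or up to 3 where none passed. B2m, Irf7, Stat2, Isg15, Psmb8, Tap1 and Ifi47 were named in any case. Alternatives changed the filter, the scaling, the probe summary, the replicate block, the arrays fitted and the arrays left out.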

Additional observations from a re-analysis of the deposited data

Results flagged for a closer look

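Castration differences in TEC that changed with the day, by a test over the 3 days together, were those of Parp14 (F = 13.8, adjusted p = 0.0041), Irgm1 (F = 9.69, 0.0139), Irf1 (F = 8.44, 0.0206), Mx2 (F = 7.41, 0.0307), Ifit3 (F = 7.36, 0.0313) and Gbp2 (F = 6.67, 0.040). The ageing difference was more negative in TEC than in nonTEC for Psme2, by -1.50 (adjusted p = 0.0411). The castration difference over days 4 and 7 was higher in TEC than in nonTEC for Parp14 by 0.88 (0.0122), Ifit2 by 0.63 (0.0425) and Stat2 by 0.79 (0.0482). No group had the 4 or more arrays that a test for an outlying array needs.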

How the results depend on the processing

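Among named members, 550 of the alternatives that left no single array out kept direction and call, 57 lost the call, 8 gained one and 6 turned the sign. The 6 concern TEC against nonTEC. B2m turned to 0.079 with median centring and 0.098 with quantile normalization, Irgm1 to 0.12 and Gbp2 to 0.025 with the latter, and Ifit3 to -0.29 and Oasl2 to 0.60 with the mean of all probes. The cause was not tested.

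Counts of called members that moved were as follows. With no filter, the castration difference between fractions gave 1 call, where 505 of all 10543 genes were called. The stricter filter gave 1 for TEC ageing and 0 for TEC sham against unoperated, where 1270 and 370 of all 6141 genes were called. The mean of all probes gave 3 between days and 0 for TEC sham, where 1313 and 445 of all 7528 genes were called. Fitting only the arrays compared left fewer residual degrees of freedom, and the number of all genes called is given in brackets. For ageing it gave 0 in TEC (8 of 7552) and 3 in nonTEC (1320 of 7492). For castration it gave 0 in TEC on day 4 (0 of 7572, 13 members unadjusted) and 18 on day 20 (3812 of 7367). In nonTEC it gave 1 on day 4 (351 of 7336) and 1 on day 7 (428 of 7335). Between days in TEC the count was 10 (2109 of 8074). Of the differences between fractions, it gave 0 for ageing (118 of 8191) and 5 for castration (748 of 8266). For TEC sham it gave 0 (5 of 7934) and for sham day 20 it gave 22 (5135 of 7808). Leaving out the 4 TEC arrays that stand apart, an alternative chosen after seeing the data, gave 10 for TEC ageing, 0 for TEC on day 4 (4 unadjusted), 4 and 1 for the ageing and castration differences between fractions and 5 for TEC sham.

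Without the 4 TEC arrays, 2970 of all 8161 genes were called for TEC ageing and 1294 of 8161 for TEC sham. For the ageing difference between fractions 1725 of 8472 were. Deviations of arrays with the same replicate number correlated between -0.43 and 0.73. They were not set against arrays of different numbers, so whether the numbers pair the arrays was not tested. With the number as a replicate block, 2 members were called for TEC sham, 1 for nonTEC sham and 1 for the castration difference between fractions. Of all genes, 715 of 8195, 41 of 7762 and 557 of 8487 were called in these fits.

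Leaving out each array in turn gave 1 to 8 calls for TEC ageing, 3 to 7 for nonTEC ageing, 0 to 11 for TEC on day 4, 0 to 0 on day 7, 1 to 2 on day 20, 0 to 1 for nonTEC on day 4 and 0 to 0 on day 7. It gave 2 to 9 between days, 0 to 2 and 1 to 8 for the ageing and castration differences between fractions, 22 to 25 for TEC against nonTEC, 0 to 5 for TEC sham, 0 to 2 for nonTEC sham and 12 to 15 for sham day 20. A lone sham array of nonTEC on day 7 was then assumed to vary like the other groups. Group size limits precision.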
